A study of Mus musculus with 5 samples.

Results

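The 9 genes described here encode inhibitory receptors of immune cells other than PD-1: Lag3, Havcr2 (TIM-3), Tigit, Cd160, Entpd1 (CD39), Cd101, Btla, Vsir (VISTA) and Cd200r1 (the receptor of CD200). They were chosen by name, and all 9 of 9 had transcripts among the 27998 genes of the deposited table. Single mouse immune cells, sorted as live CD45+ cells, were sequenced from the 5′ end of their transcripts after hashtag antibodies had marked 9 samples, which came from the tumour, the tumour-draining lymph node and a non-draining lymph node of 3 mice. Nivolumab, an antibody against PD-1, was given to 1 mouse as mIgG1 carrying D265A, a change in the Fc part, and to another as mIgG1 without that change, and the remaining mouse received the isotype control MOPC21. Strain, age and tumour model are not stated in the labels used here.

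The sources used here do not say which hashtag marks which mouse and site. The 9 hashtagged samples are named populations 1 to 9, they form no groups, and neither sites nor antibodies were compared. Each population is 1 sample of 1 mouse, so no test was run: values are given for each population or as their range, and intervals (95%, exact) cover counting error only. After the stated filters 21531 cells remained, with 2056 to 2581 cells and 9202501 to 31330079 gene UMIs (unique molecular identifiers, each 1 counted transcript) in a population and medians of 3377 to 10660 UMIs per cell. Cells were sorted into classes by transcripts of marker genes that include none of the 9 receptors, and 16263 cells fell into the 11 classes of at least 50 cells. Among the markers that the gates did not use, Prf1, which encodes perforin, stood at 722 UMIs per 1000000 UMIs of the class (CPM) in activated CD8 T cells and at 24.3 CPM in naive ones, and Il2ra, the interleukin-2 receptor alpha chain, at 528 CPM in regulatory T cells and at 3.60 CPM in naive CD4 T cells. In activated CD4 T cells Il2ra stood at 82.8 CPM. Other markers separated the classes less. Cd40lg, a CD4 T cell gene, stood at 56.5 CPM in naive CD8 T cells, against 2.73 CPM in activated CD8 and 189.7 CPM in naive CD4 T cells, and Eomes, a transcription factor of cytotoxic cells, stood at 19.4 CPM in activated CD8 T cells and at 27.7 CPM in the CD8 T cells of neither gate.

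Inhibitory receptors set an upper limit on how strongly a lymphocyte or myeloid cell answers a stimulus, and several of them accumulate on T cells that meet their antigen for a long time, a state known as exhaustion. LAG-3 binds MHC class II, TIM-3 binds galectin-9, phosphatidylserine and CEACAM1, and TIGIT competes with the activating receptor CD226 for the ligand CD155, encoded by Pvr. BTLA and CD160 both bind HVEM (Tnfrsf14). CD39 is an enzyme that breaks down extracellular ATP, and CD73 (Nt5e) turns its product into the inhibitory adenosine. VISTA restrains both T cells and myeloid cells, CD101 is an immunoglobulin family protein known from exhausted T cells and subsets of regulatory T cells, and CD200R1 answers CD200 on neighbouring cells.

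The genes lie on 6 chromosomes (GRCm38, GENCODE vM21). Tigit (chr16:43648867-43664146, minus strand), Cd200r1 (chr16:44765736-44794978, plus strand) and Btla (chr16:45224315-45257670, plus strand) share chromosome 16. Cd160 (chr3:96798763-96829351) and Cd101 (chr3:100993529-101029556) are on the minus strand of chromosome 3. Lag3 (chr6:124904361-124911705, minus strand) lies 16139 bases from Cd4. Havcr2 spans chr11:46454935-46481255 and Entpd1 chr19:40612366-40741602, both on the plus strand. Vsir (chr10:60346851-60372684, plus strand) lies inside Cdh23 on the opposite strand, and no source used here says whether counting used the strand. Cdh23 itself was counted at 0.814 to 7.79 CPM over the classes, against 10.0 to 177 CPM for Vsir. Cd160 overlaps Pdzk1 on the opposite strand, which was counted at 0 to 1.44 CPM.

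The 250 bases before the transcript start are shown for 3 of the receptors that were far higher in activated than in naive CD8 T cells with all populations pooled. They are also shown for Btla, which was lower in that pool (RefSeq, GRCm38.p6, the strand of the gene, 5′ to 3′). RefSeq windows were matched for 7 of the 9 genes, and the first Cd160 start is shown. Capitals mark matches, on either strand, to 4 short motifs of factors active in T cells: TGANTCA (AP-1), GGAAA (the NFAT core), TGTGGT (RUNX) and AAGGTCA (an NR4A half-site). No match overlapped another.
Havcr2, chr11:46454681-46454930, plus strand: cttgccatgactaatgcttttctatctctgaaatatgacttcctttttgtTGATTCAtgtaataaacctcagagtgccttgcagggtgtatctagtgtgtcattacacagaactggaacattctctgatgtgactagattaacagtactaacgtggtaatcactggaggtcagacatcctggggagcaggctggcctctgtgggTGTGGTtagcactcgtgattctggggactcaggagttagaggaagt
Tigit, chr16:43664185-43664434, minus strand: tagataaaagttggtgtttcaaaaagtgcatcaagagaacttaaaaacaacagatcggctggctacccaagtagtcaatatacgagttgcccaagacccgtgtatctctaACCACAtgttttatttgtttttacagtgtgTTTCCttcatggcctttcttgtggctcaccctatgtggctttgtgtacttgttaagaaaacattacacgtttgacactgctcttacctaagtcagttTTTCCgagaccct
Cd160, chr3:96829352-96829601, minus strand: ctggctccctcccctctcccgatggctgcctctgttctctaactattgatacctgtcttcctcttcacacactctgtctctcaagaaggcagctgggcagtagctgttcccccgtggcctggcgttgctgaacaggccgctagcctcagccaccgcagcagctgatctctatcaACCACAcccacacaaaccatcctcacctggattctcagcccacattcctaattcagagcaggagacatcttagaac
Btla, chr16:45224087-45224336, plus strand: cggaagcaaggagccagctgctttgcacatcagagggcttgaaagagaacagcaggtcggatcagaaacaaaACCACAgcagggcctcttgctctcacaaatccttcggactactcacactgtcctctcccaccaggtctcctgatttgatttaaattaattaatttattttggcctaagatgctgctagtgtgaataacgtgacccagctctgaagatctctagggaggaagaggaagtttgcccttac
The Havcr2 window held an AP-1 match beginning 200 bases before the start and a RUNX match at 46 bases. The Tigit window held a RUNX match at 140 bases and NFAT cores at 110 and 13 bases. In the Cd160 and Btla windows 1 RUNX match each was found, at 76 and 178 bases. The motif thus occurred in all windows shown, whether the receptor was higher or lower in the pool. Entpd1, also far higher in the pool, had no RUNX match in any of its windows. Of 32851 RefSeq windows of this length, 6.75% held the AP-1 motif, 55.6% the NFAT core, 14.05% the RUNX motif and 4.08% the NR4A half-site. Of the 9 windows of the 7 receptors, 1 held the AP-1 motif, 4 the NFAT core, 6 the RUNX motif and 0 the NR4A half-site. By receptor, these motifs were found for 1, 4, 5 and 0 of the 7. These are matches of letters and no measure of binding.

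The 9 receptors divided the cell classes between them. Lag3, Havcr2, Cd160 and Cd101 were highest in activated CD8 T cells, Tigit and Cd200r1 in regulatory T cells, Btla in B cells, Vsir in macrophages and Entpd1 in monocytes. Lag3 at 792 CPM in activated CD8 T cells was the highest class level of any of the 9, and Cd101 and Cd200r1 stayed at or below 30.02 CPM in every class. For comparison, Pdcd1 itself, which encodes PD-1, stood at 458 CPM in activated CD8 T cells and Ctla4 at 1435 CPM in regulatory T cells. A UMI counts 1 molecule of any length, so these levels need no scaling by length. Of the 90 pairs of neighbouring classes in these orders, 82 had overlapping ranges over populations, so most steps in the order do not exceed the spread between populations. The same share over all genes is not given here, so the count is a limit on the order and no trait of these receptors.

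**Figure D1:**
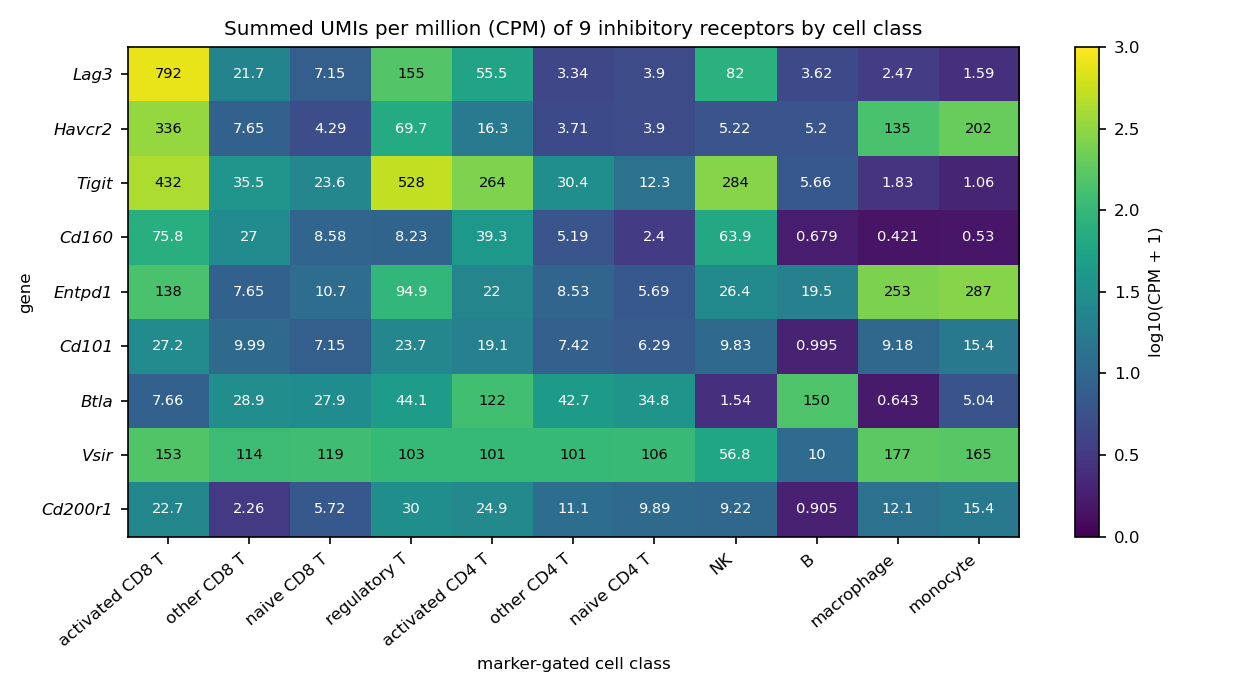
Level of each receptor (rows) in each of the 11 cell classes (columns), in CPM, with colour on a log10(CPM + 1) scale and all populations pooled. Lag3, Havcr2 and Tigit stand out in activated CD8 T cells, Btla in B and activated CD4 T cells, and Havcr2, Entpd1 and Vsir in both myeloid classes.

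Lag3 was abundant in activated T cells and regulatory T cells of some populations only. In activated CD8 T cells its level was 860 CPM in population 1 (622 cells), 1088 in population 4 (360 cells) and 617 in population 7 (162 cells). Populations 3, 5, 6, 8 and 9 held 21 to 35 activated CD8 T cells each, at 44.0, 62.1, 0, 27.0 and 66.2 CPM. All 5 values lay below the first 3. The share of all genes that divide these populations likewise is not given here. The division is therefore not read as particular to Lag3 or to the other receptors below. The count of 0 in population 6 was made among 35 cells and allows up to 15.2 CPM. CD8 T cells outside both the activated and the naive gate stood at 352, 282 and 507 CPM in populations 1, 4 and 7 and at 3.42 to 20.9 CPM in the 6 other populations. Regulatory T cells followed the same division, with 705 and 464 CPM in populations 1 and 4 and 12.9 to 74.3 CPM in the 6 others that held at least 20 of these cells. NK cells, read in populations 1, 4 and 7, were at 83.7, 96.6 and 58.1 CPM. B cells, macrophages and monocytes were at 3.62, 2.47 and 1.59 CPM.

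By class, Havcr2 was highest in activated CD8 T cells, monocytes and macrophages. Its level was 360, 467 and 250 CPM in the activated CD8 T cells of populations 1, 4 and 7, and 51.4, 117, 5.08, 42.4 and 4.73 CPM in those of populations 3, 5, 6, 8 and 9. All 17 Havcr2 UMIs of population 5 came from 1 cell. Monocytes held 178, 186 and 217 CPM and macrophages 128, 138 and 135 CPM in populations 1, 4 and 7, so the monocyte values lay above all macrophage values. Regulatory T cells held 69.7 CPM, with 129 and 225 CPM in populations 1 and 4 and 0 to 68.0 CPM in the others with at least 20 such cells. NK cells had hardly any Havcr2, at 5.22 CPM. B cells (5.20 CPM), naive CD8 T cells (4.29 CPM) and naive CD4 T cells (3.90 CPM) were as low.

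Tigit was shared by regulatory, activated CD8 and activated CD4 T cells and NK cells, each above 260 CPM. Regulatory T cells ranged from 201 to 1508 CPM (median of 8 populations 390.1 CPM), highest in populations 1 (1508 CPM) and 4 (1218 CPM). Activated CD8 T cells stood at 455, 546 and 429 CPM in populations 1, 4 and 7 and at 29.4 to 55.2 CPM in the 5 others. Activated CD4 T cells ranged from 50.2 to 800 CPM, with 363, 149, 800, 246, 50.2, 264 and 51.3 CPM in populations 2, 3, 4, 5, 6, 8 and 9. NK cells were even, at 318, 291 and 256 CPM in populations 1, 4 and 7. Naive CD4 T cells had 12.3 CPM, B cells 5.66 CPM and both myeloid classes under 2 CPM.

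Cd160 did not follow that division between populations. In activated CD8 T cells it ranged only from 41.4 to 110 CPM over 8 populations: 68.3, 58.7, 68.7, 41.4, 76.2, 110, 96.4 and 109 CPM in populations 1, 3, 4, 5, 6, 7, 8 and 9. In population 9, 1 cell held 17 of the 23 UMIs. NK cells, which share the cytotoxic programme, held 63.9 CPM, and other CD8 T cells 27.0 CPM with 15.8 to 86.6 CPM over populations, above the naive CD8 T cells of every population (3.46 to 15.5 CPM). Regulatory T cells had 8.23 CPM. Those of populations 1, 4 and 5 held no Cd160 UMI, which allows up to 13.3, 21.7 and 15.9 CPM, so these zeros show no absence. The 39.3 CPM of activated CD4 T cells rests on population 5, where 1 cell held 38 of 54 UMIs.

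Entpd1 and Vsir had their highest levels in the myeloid classes, where Havcr2 was also abundant. Entpd1 stood at 257, 329 and 277 CPM in the monocytes and at 246, 270 and 245 CPM in the macrophages of populations 1, 4 and 7. Activated CD8 T cells of the same 3 populations reached 164, 143 and 139 CPM, below all these myeloid values, and those of the 5 other populations 0 to 29.4 CPM. Apoe, an abundant macrophage transcript, was at 36.2 CPM in activated and 47.9 CPM in naive CD8 T cells, against 4775 CPM in macrophages. Regulatory T cells held 275 and 304 CPM in populations 1 and 4 and 18.4 to 45.4 CPM in the 6 others. Vsir was spread over T cells whether activated or not, with 101 to 153 CPM in their 7 classes: naive CD8 T cells held 119 CPM (86.4 to 154 over populations), naive CD4 T cells 106 CPM and regulatory T cells 103 CPM. Macrophages reached 177 CPM and monocytes 165 CPM, NK cells 56.8 CPM and B cells 10.0 CPM. In macrophages Vsir was 230, 179 and 161 CPM in populations 1, 4 and 7. Activated CD8 T cells ranged from 76.2 to 180 CPM of Vsir over populations, overlapping macrophages and monocytes (158 to 173 CPM).

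Btla was highest in B cells and activated CD4 T cells, and lower but present in other T cells. Regulatory T cells held 44.1 CPM and naive CD4 T cells 34.8 CPM. The CD8 T cells of neither gate held 28.9 CPM and naive CD8 T cells 27.9 CPM. B cells of 6 populations lay between 125 and 167 CPM, the narrowest range relative to its level of any class in which Btla exceeded 40 CPM. Activated CD4 T cells stood at 94.9, 116, 156, 78.0, 218 and 106 CPM in populations 2, 3, 5, 6, 8 and 9. The 23 such cells of population 4 held no Btla UMI, which allows up to 33.3 CPM. Activated CD8 T cells had 4.57, 4.66 and 8.63 CPM in populations 1, 4 and 7, below the 19.3 to 41.4 CPM of the 5 other populations. NK cells and macrophages were at 1.54 and 0.643 CPM.

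Cd101 and Cd200r1 were rare transcripts. The sources used here do not say how reads shared between Cd200r1 and its close relatives were counted. Cd101 was highest in activated CD8 T cells (27.2 CPM), regulatory T cells (23.7 CPM) and activated CD4 T cells (19.1 CPM), and in activated CD8 T cells it ranged from 0 to 42.5 CPM over 8 populations. Cd200r1 stood at 30.02 CPM in regulatory T cells, 24.9 in activated CD4 T cells and 22.7 in activated CD8 T cells. In activated CD8 T cells it was 27.2 and 30.6 CPM in populations 1 and 4, 9.96 CPM in population 7 and at most 9.46 CPM in the others. In activated CD4 T cells of population 4 it reached 100 CPM on 9 UMIs. Macrophages and monocytes, in which CD200R1 is best known, held 12.1 and 15.4 CPM.

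**Figure D2:**
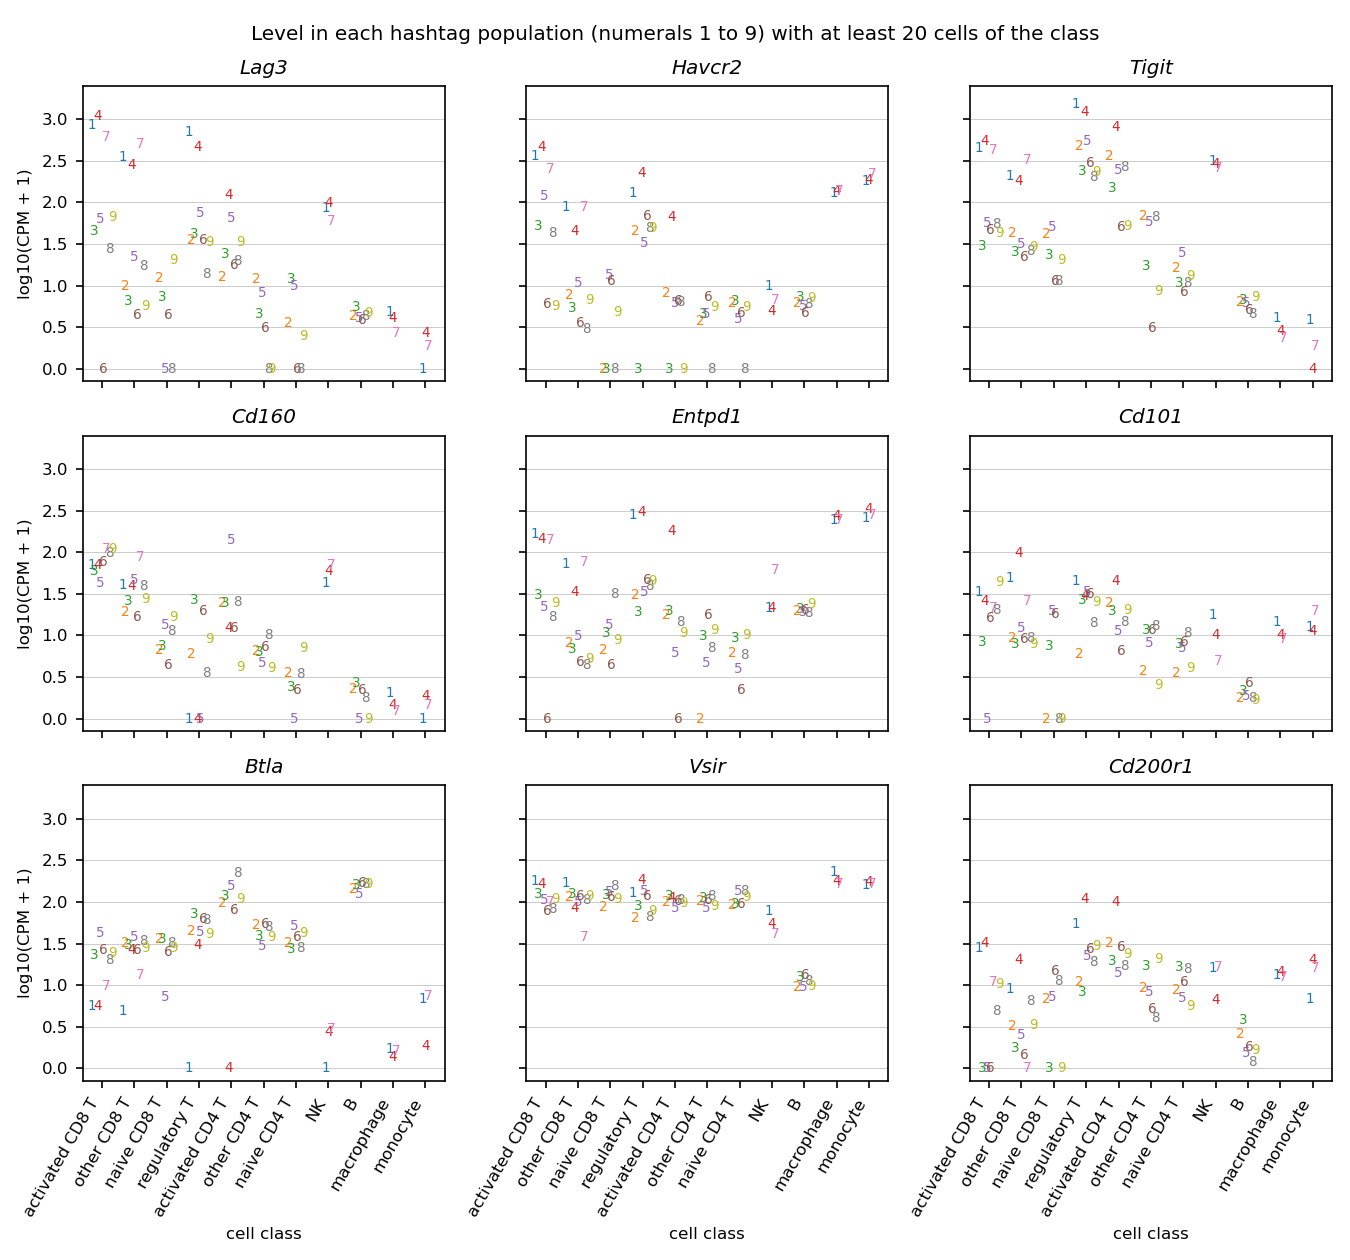
Level of each receptor in each hashtag population, as log10(CPM + 1) on the vertical axis, for every cell class on the horizontal axis with at least 20 cells in that population (numerals are population numbers). In activated CD8 T cells numerals 1, 4 and 7 lie above the others for Lag3, Havcr2, Tigit and Entpd1. They lie narrowly above for Cd200r1 and below for Btla. For Cd160, Cd101 and Vsir they do not separate from the others. The share of all genes that separate in this way is not given here.

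The first comparison asks which of the receptors separate activated from naive CD8 T cells. With all populations pooled, 7 of the 9 were at least 2-fold higher in the 1318 activated than in the 372 naive CD8 T cells, 1 was at least 2-fold lower and 1 differed less. Over all 9337 genes with at least 50 UMIs in both classes together, 14.9% were higher and 8.44% lower by the same rule, and the median ratio was 8.84 for the 9 receptors and 1.04 for all genes. Lag3 was 111-fold higher (60.2 to 231), from 7.15 to 792 CPM. Havcr2 was 78.3-fold higher (35.9 to 213), on 6 UMIs in naive cells. Tigit was 18.3-fold, Entpd1 12.9-fold, Cd160 8.84-fold, Cd200r1 3.96-fold and Cd101 3.80-fold higher. Without population 9 the ratio of Lag3 was 185, and without population 6 those of Havcr2, Cd101 and Cd200r1 were 127, 6.08 and 6.42. All naive cells together held 10, 6, 10 and 8 UMIs of these 4 genes. Btla was 3.64-fold lower (2.40 to 5.44), and Vsir had a ratio of 1.29 (1.10 to 1.52). For reference, Pdcd1 was 128-fold, on 5 UMIs in naive cells, and Ctla4 4.28-fold higher in the pool.

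Class and population cannot be told apart in most of this comparison. Populations 1, 4 and 7 held 622, 360 and 162 of the 1318 activated CD8 T cells and 0, 0 and 1 of the 372 naive ones. Their cells were also deeper, with medians of 5683, 7198 and 10660 UMIs against 3377 to 3682 in the 6 other populations, and the part of depth in these ratios was not tested. Only populations 3, 5, 6, 8 and 9 had at least 20 cells of both classes, with 147 activated and 319 naive cells in all. There, 4 of the 9 receptors had the 50 UMIs required, and 2 of these were called higher and 0 lower, against 4.09% higher and 1.55% lower of 5472 genes. Cd160 was 8.96-fold higher (4.74 to 18.7, 77 against 11 UMIs), as much as in the pool, with 17 of its UMIs in 1 cell of population 9. It lay above 1 in all 4 populations with at least 10 UMIs of the gene (7.00 to 22.0). In population 5 its ratio was 3.34 on 6 against 2 UMIs. Tigit was 2.25-fold higher (1.35 to 3.84). Lag3 had a ratio of 5.76 (2.63 to 14.3) and Havcr2 of 7.89 (3.30 to 22.9), but on 44 and 43 UMIs, short of the 50 required, and 17 of those for Havcr2 came from 1 cell. Btla and Vsir had ratios of 0.96 and 0.78. Entpd1, Cd101 and Cd200r1, also short of the 50 UMIs, had ratios of 1.46, 2.30 and 0.55. The lower level of Btla in the pool was thus not seen within these populations, where it stood at 25.3 CPM in activated and 26.3 CPM in naive cells. The higher level of Ctla4 was not seen there either (ratio 1.01, 0.806 to 1.26), and Pdcd1 had a ratio of 7.68 on 30 against 5 UMIs.

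The second comparison sets Foxp3-expressing regulatory T cells, which restrain other T cells, against the 1785 CD4 T cells without a Foxp3 UMI. Of these 1785 cells, 807 were naive, 368 activated and 610 in neither gate, so resting cells weigh heavily in the ratios. Here 6 of the 9 receptors were at least 2-fold higher in the 324 regulatory T cells and 0 were lower, against 10.5% higher and 3.76% lower of 9312 genes, and the median ratio was 2.38 against 1.12. Havcr2 was 9.93-fold higher (7.26 to 13.7), Lag3 9.12-fold (7.44 to 11.2), Entpd1 8.76-fold (6.78 to 11.4) and Tigit 6.36-fold (5.78 to 7.02). Cd101 and Cd200r1 were 2.38-fold and 2.12-fold higher. Cd200r1 missed the limit without population 1 or 4 (1.92 and 1.85). Cd160 and Btla had ratios of 0.64 (0.36 to 1.08) and 0.74 (0.58 to 0.92), and Vsir of 0.99 (0.85 to 1.16). The ratio of Cd160 was 1.32 without population 5, and 0.39 and 0.45 without population 3 or 6, where it was called lower. Against activated CD4 T cells alone the gap was small for Cd200r1 (30.02 against 24.9 CPM) and Cd101 (23.7 against 19.1 CPM). It was wider for Tigit (528 against 264), Lag3 (155 against 55.5), Entpd1 (94.9 against 22.0) and Havcr2 (69.7 against 16.3). Btla and Cd160 were lower in regulatory T cells (44.1 against 122 and 8.23 against 39.3 CPM). Il2ra stood at 82.8 CPM in activated CD4 T cells, and whether some of them were regulatory T cells with no Foxp3 UMI was not tested.

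Both CD4 classes occurred together in 8 populations, so the ratio can be read within each. Over these 8 alone 6 of the 9 receptors were higher and 0 lower, against 10.5% and 3.63% of 9260 genes. Tigit was higher in regulatory T cells in 8 of 8 populations, from 1.60-fold in population 4 to 27.5-fold in population 6 (median 3.84), and its interval left out 1 in all 8. Lag3 was higher in 8 of 8 (1.26 to 12.5, median 4.00) and Entpd1 in 8 of 8 (1.80 to 7.97, median 4.18), with 6 intervals above 1 for each. Havcr2 was higher in 6 of the 7 populations with at least 10 UMIs (median 8.66) and was 0.536 in population 1. Cd101 was higher in 5 of 7 and Cd200r1 in 6 of 8, the latter with 0 intervals above 1. The pooled ratios of Lag3 and Entpd1 were over 2 times the within-population medians. Populations 1 and 4, which had the highest levels of both genes, contributed 43 and 32 of the 324 regulatory T cells but 24 cells each of the 1785 others. Among the few Foxp3-negative CD4 T cells of populations 1 and 4, Lag3 stood at 560 and 116 CPM.

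**Figure D3:**
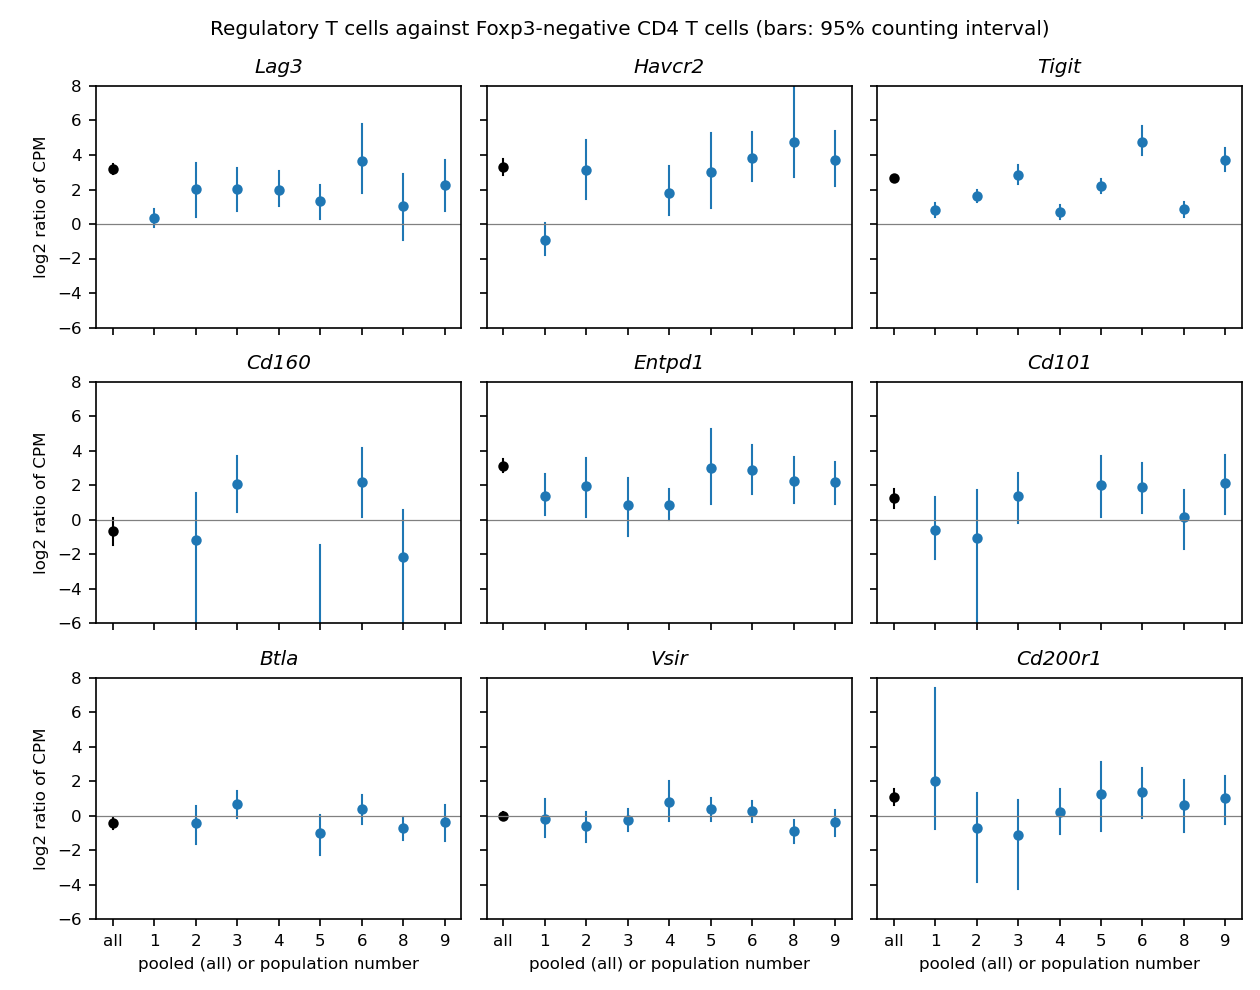
Log2 ratio of CPM in regulatory T cells over Foxp3-negative CD4 T cells for each receptor, pooled (black) and within each of 8 hashtag populations with at least 10 UMIs of the gene (blue), with 95% counting intervals drawn as bars that end at the axis limits. Tigit, Lag3 and Entpd1 lie above 0 in all 8 populations, whereas Vsir and Btla scatter around 0.

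Ligands, partners and rivals of the 9 receptors formed a list of 22 genes. In activated against naive CD8 T cells 14 of them had enough UMIs, and 8 were higher and 0 lower, against 14.9% and 8.44% of all genes (median ratio 2.33, all genes 1.04). Genes that act after CD39 in the adenosine pathway were among them, with Nt5e (CD73) at 2.46-fold and Adora2a, which encodes an adenosine receptor, at 7.04-fold. Cd200, the ligand of CD200R1, was 8.92-fold higher, and Cd200r4, a relative of Cd200r1, 8.51-fold. Lgals3 (galectin-3, a LAG-3 ligand) was 23.0-fold, Ceacam1 15.8-fold on 1 UMI in naive cells, Tnfsf14 (LIGHT, which binds HVEM) 5.43-fold and Selplg (PSGL-1, a VISTA ligand) 2.20-fold higher. Naive cells held only 2 UMIs of Tnfsf14 and 5 each of Cd200 and Cd200r4. Cd226, the activating rival of TIGIT, had a pooled ratio of 1.96, just short of the limit. In populations 3, 5, 6, 8 and 9 alone 6 of the 22 had enough UMIs, and 1 was higher, Lgals3 at 5.17-fold (3.31 to 8.37), and 0 lower, against 4.09% and 1.55% of genes. Selplg stood there at a ratio of 1.16 (1.02 to 1.31) and Cd226 at 0.850 (0.631 to 1.14), so their pooled ratios were not seen within these populations. Adora2a, Nt5e, Cd200r4, Tnfsf14, Cd200 and Ceacam1 had under 50 UMIs there, too few to call. In regulatory T cells 3 of 12 were higher in the pool, Nt5e (3.67-fold), Lgals3 (2.89-fold) and Adora2a (2.72-fold), and 0 lower, against 10.5% and 3.76% of all genes. Within populations Nt5e and Adora2a lay above 1 in 7 of 8 each (medians 3.80 and 2.04), and Lgals3 in 5 of 8 (median 1.54, from 0.208 to 12.1).

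Among the ligands, the galectins were highest in myeloid cells. Lgals3 stood at 2530 CPM in monocytes and 1647 CPM in macrophages and Lgals9 (galectin-9) at 392 and 253 CPM. Pvr was low in every class, at 5.38 CPM in B cells to 30.2 CPM in monocytes, and Nectin2, another TIGIT ligand, was near 0 outside macrophages (7.65 CPM). Cd200 was highest in activated CD4 T cells (104 CPM), followed by regulatory T cells (38.7 CPM) and B cells (32.7 CPM). Tnfrsf14 did not exceed 16.2 CPM, its level in monocytes. Fgl1 and Igsf11 had no UMI in any class, which allows up to 0.0742 CPM in macrophages, the class with the most UMIs.

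Pairs of receptors were then counted in single cells after each cell had been thinned to 1500 UMIs, so that deep cells do not hold more pairs by depth alone. Thinned in this way, Lag3 was seen in 55.0% of 1299 activated CD8 T cells (52.3 to 57.8%, 77.2% unthinned), Tigit in 43.0%, Havcr2 in 33.0%, Vsir in 20.9%, Entpd1 in 17.7% and Cd160 in 8.47%. In B cells Lag3, Tigit and Havcr2 were seen in 0.576%, 0.844% and 0.843% of 6032 thinned cells. The median depths before thinning were 6487 UMIs in activated CD8 T cells and 3011 in B cells. In 315 regulatory T cells Tigit was seen in 39.1%, Lag3 in 15.2% and Entpd1 in 13.6%.

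Receptors of activated CD8 T cells occurred together little more often than their separate shares imply. The expected number of cells with both was computed within each population and summed, and a pair was read where at least 10 cells were expected. Of 36 pairs 24 could be read in 1273 cells of 8 populations, 0 reached 25% over the expected number, 8 lay under it, and the median ratio was 1.05. Of 36151 pairs of a receptor with any other gene, 0.697% reached 25% over, and the median was 0.996. Havcr2 with Entpd1 was highest at 1.21 (101 cells against 83.4 expected), with 1.248 in population 1 and 1.15 in population 4. Lag3 with Tigit were seen together in 29.2% of cells (372 against 338 expected, ratio 1.10) and Lag3 with Havcr2 in 22.9% (292 against 265, ratio 1.10). Cd160 with Entpd1 was lowest at 0.80 (15.8 against 19.6 cells). Lag3 with Havcr2 had ratios of 1.08, 1.09 and 1.255 in populations 1, 4 and 7. With Pdcd1, the ratios ran from 1.01 for Cd101 and for Cd160 to 1.06 for Havcr2. A ratio cannot exceed 1 over the larger of the 2 shares, which keeps it below 2 for Lag3.

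In regulatory T cells 5 of 36 pairs could be read in 295 cells, and their ratios lay between 1.12 and 1.27. The 1 pair at least 25% over was Lag3 with Tigit, at 1.27 (32.5 against 25.7 cells), where 1.4% of 6338 pairs of a receptor with any other gene reached as much. Its ratio was 1.10 in population 1, the only population with at least 10 expected cells, and it stood at 1.23, 1.247, 1.24 and 1.246 without population 4, 5, 6 or 8, below that limit. Havcr2 with Tigit stood at 1.22 and Tigit with Vsir at 1.16. In activated CD4 T cells 1 pair could be read, Tigit with Vsir, at 1.16.

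**Figure D4:**
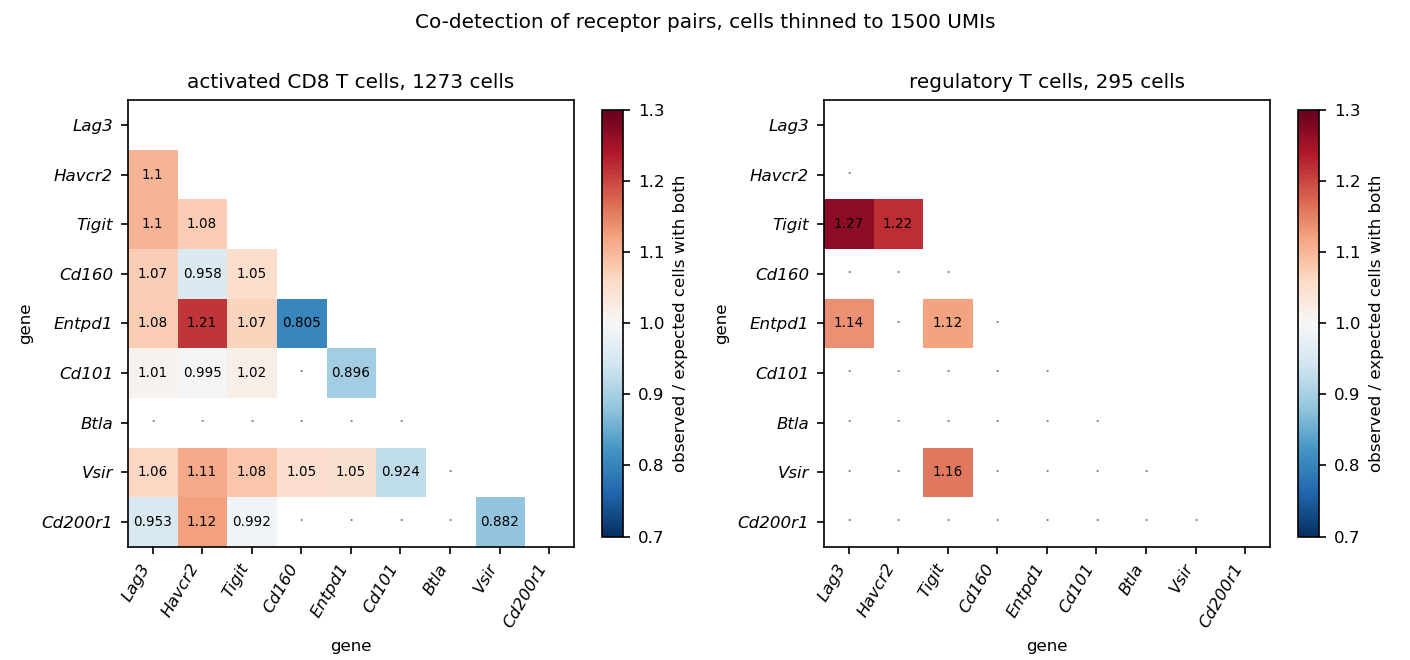
Observed over expected number of cells with a UMI of both receptors, in activated CD8 T cells (left) and regulatory T cells (right) thinned to 1500 UMIs. Colours run from 0.7 to 1.3 and dots mark pairs with fewer than 10 expected cells. Havcr2 with Entpd1 (1.21) and Cd160 with Entpd1 (0.805) are the extremes in activated CD8 T cells.

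The number of different receptors per cell differed between populations of the same class. Thinned activated CD8 T cells showed a mean of 1.88 of the 9 receptors, 84.0% showed at least 1 and 31.3% at least 3. Over the 8 populations with at least 20 of these cells 31.8% showed at least 3, and 29.9% would do so if the receptors were unrelated within each population. The mean was 2.07, 2.20 and 1.81 in populations 1, 4 and 7 and 0.311 to 0.692 in populations 3, 5, 6, 8 and 9. Within population 1, 34.9% of cells showed at least 3, and 33.4% would do so if unrelated. Regulatory T cells of populations 1 and 4 showed means of 2.12 and 2.15, like the activated CD8 T cells there, and 36.6% and 39.9% of them showed at least 3. In the 6 other populations the mean for regulatory T cells was 0.602 to 0.966. Monocytes (0.849), macrophages (0.777) and NK cells (0.647) stood above naive CD8 (0.307), B (0.277) and naive CD4 T cells (0.252).

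**Figure D5:**
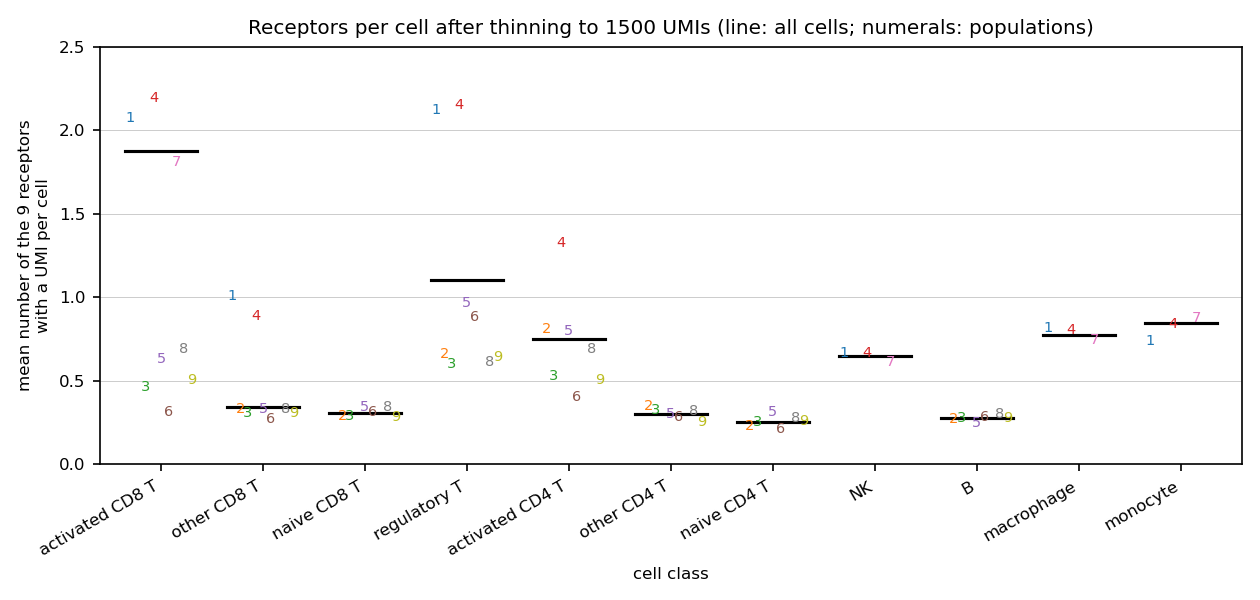
Mean number of the 9 receptors with at least 1 UMI per cell, after thinning to 1500 UMIs, for each class (black lines, all cells) and each hashtag population with at least 20 cells (numerals). Activated CD8 T cells of populations 1, 4 and 7 lie at 1.81 to 2.20 and regulatory T cells of populations 1 and 4 at 2.12 and 2.15.

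Patterns over classes and populations were compared by the Pearson correlation of log2(CPM + 1) over 65 sums, 1 for each class in each population with at least 20 cells, which share populations and differ in depth. The correlation is a description over these sums. Among 9736 genes, those most like Lag3 were Rgs16 (0.85), Atxn1 (0.84) and Pdcd1 (0.83). Tigit was most like Ndfip1 (0.93), Tnfrsf18 (0.91), which encodes the costimulatory receptor GITR, and Cd82 (0.90). Cd160 was most like Ctsw, Xcl1 and Cd226 (0.79, 0.78 and 0.76), Havcr2 like Bsg and Psmb8 (0.83 each), and Entpd1 like Ly6a, Clic1 and Rai14 (0.83 each). Btla was most like Mapk11, St6gal1 and Sh3bp5 (0.82, 0.81 and 0.80), and Vsir like Ms4a6b, Slco3a1 and Fyb (0.93, 0.89 and 0.88). For Cd101 the genes were Plk3, S100a13 and Fam110a (0.76, 0.73 and 0.72), and for Cd200r1 Phlda1, Ifnar1 and Spcs2 (0.69 each). Between the receptors themselves, Lag3 with Tigit (0.79) and Entpd1 with Havcr2 (0.76) were most alike, and Btla with Entpd1 least (-0.58).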

How the data were processed

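The deposited table holds UMI counts per feature and cell, whole numbers with no normalization, which the authors deposited; the submitters' processing notes name Cell Ranger 8.0.1 and mm10. It pools 4 gene expression libraries and 1 hashtag library of 9 samples, per the labels. All barcodes carry 1 suffix, so cells were not split by library and barcodes shared between libraries were not counted. The stated filters (500 UMIs, 200 genes, 20% mitochondrial) removed 93 of 21624 cells. A cell was given to the antibody capture feature whose count was at least 3 times the next, which left 258 cells in no population. They stay in pooled values.

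Classes were gated on raw UMIs. T cells needed 2 UMIs of CD3 genes, at most 2 of B cell and 5 of myeloid genes. CD8 T cells had Cd8a or Cd8b1 and no Cd4 or Foxp3, and were activated with UMIs of at least 2 of Gzmb, Gzmk, Cxcr6, Ifng, Ccl3 and Ccl4, or naive with none of these nor of Ccl5, Nkg7 and Cxcr3 and a UMI of a naive T cell gene such as Ccr7 or Lef1. Regulatory T cells had a Foxp3 UMI and no CD8 gene. CD4 T cells were gated likewise on Tnfrsf4, Icos, Cxcr6, Ifng, Bhlhe40 and Maf, and NK, B and myeloid cells on their own lineage genes. No doublets were removed. A gamma-delta T gate was planned on Trdc, which has no row under that symbol, and was not used. Of the passing cells 5180 fell into no class, 3051 of them with at least 2 CD3 UMIs, and 4 classes under 50 cells are left to the closing observations.

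Levels are summed UMIs per 1000000 gene UMIs (CPM). Ratios were called at 2-fold or 0.5 with at least 50 UMIs and an interval without 1. Intervals are exact Poisson for levels, conditional binomial for ratios and Clopper-Pearson for shares. A count of 0 was taken to allow 3 counts. Thinning was computed as its exact expectation, with no random draw. Likeness used genes with at least 500 UMIs, and the 3 most alike are named, apart from 1 that is not reported here. The 9 members, the 22 partners and the gates were chosen with earlier results of these data known. The named genes are all members, Pdcd1 and Ctla4 for reference, partners and the genes most alike. Calculations used Python 3.11.15, numpy 2.4.6, scipy 1.17.1 and pandas 2.3.3, and scanpy 1.11.5 for Scrublet. The ratio calls and the co-detection were tested on simulated data. Alternatives were other hashtag margins, cell filters, gates, thinning depths and expectations, doublet removal and leaving out each population.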

Additional observations from a re-analysis of the deposited data

How the results depend on the processing

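No paired analysis was possible because no test was run and the labels give no groups or replicate numbers to pair, and ratios were instead read within each population that held both classes. The count of receptors higher in activated CD8 T cells was 7 and that of receptors lower 1 under every alternative fixed with the design, leaving out each population included (7 to 7 and 1 to 1). In the added alternative, the 5 populations with both classes, they were 2 and 0, with fewer UMIs. The count higher in regulatory T cells ranged from 5 to 6 and the count lower from 0 to 1 as populations were left out, and with 2 Foxp3 UMIs they were 4 and 1, where Cd160 was the lower gene (ratio 0.29) and Cd101 and Cd200r1 missed the limit at 1.66 and 1.91. Cd160 was also lower without population 3 or 6 (0.39 and 0.45), and Cd200r1 missed the limit without population 1 or 4 (1.92 and 1.85). Pairs at least 25% over expected in activated CD8 T cells numbered 0 to 1 as populations were left out (Havcr2 with Entpd1, 1.252 without population 4) and 2 with expectations from pooled cells. In regulatory T cells they numbered 0 to 1 as populations were left out, 2 with 3 CD3 UMIs, 0 when thinned to 3000 UMIs and 4 with pooled expectations. Directions of called ratios that turned within single populations with at least 10 UMIs of the gene were Btla in population 6 (1.05) and Entpd1 in population 8 (0.50) for CD8 T cells, and Havcr2 (0.54) and Cd101 (0.66) in population 1, Cd101 (0.48) and Cd200r1 (0.61) in population 2 and Cd200r1 (0.46) in population 3 for regulatory T cells. Cd200r1 also stood below 1 in the 5 populations with both CD8 classes (0.55), but on fewer than the 50 UMIs required for a call. The cause was not tested. The 36 levels recomputed under other cell filters, a stricter T gate or without the 184 Scrublet doublets stayed within their counting intervals. Of the 9, Cd101 and Cd200r1 had the fewest UMIs (1322 and 1340 in all cells), and no Btla pair could be read in activated CD8 T cells.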

Other observations

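Dendritic cells and neutrophils were too few for the report, and the values here were picked after they had been seen. In 16 plasmacytoid dendritic cells, the main source of type I interferon, Lag3 stood at 352 CPM (250 to 481, 39 UMIs in 11 cells). Havcr2 and Cd160 had no UMI there, which allows up to 27.1 CPM of each. In 28 conventional dendritic cells Havcr2 stood at 163 CPM (123 to 212), Btla at 142 CPM (105 to 188) and Entpd1 at 118 CPM, and Tigit had 1 UMI. The 10 neutrophils held 18 Entpd1 UMIs (703 CPM) and 10 Vsir UMIs (391 CPM). Migratory dendritic cells, gated after the data had been seen without the limit on H2-Ab1, came to 87 cells and held 25.8 CPM each of Btla and Vsir and 18.4 CPM of Havcr2. No population held 20 cells of the first 3 classes, so their spread over populations was not read.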
